A study of Mus musculus with 4 samples.

Results

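The testis actin-like genes described here are *Actl7a*, *Actl7b*, *Actl9*, *Actl10*, *Actl11*, *Actrt1*, *Actrt2* and *Actrt3*, found by gene symbol in the deposited expression tables. They are 8 of the 24384 genes named in the tables. The family was chosen by the measured difference of *Actl7b* between the groups of these same libraries, where it was far lower in one group, so the values of its members are given as a description and carry no test.

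RNA of testis cells from mice at postnatal day 18 was sequenced in 2 libraries from *Zfp541*+/- controls and 2 libraries labelled *Zfp541* KO, called KO-labelled here. All 4 libraries came from cells sorted for GFP and carried the knock-in allele *Rec8-3xFLAG-HA-p2A-GFP*, in which the meiotic cohesin REC8 and GFP are made from one transcript, so the sort enriched for meiotic prophase cells of mixed stages and not for a single stage. One control testis carried the knock-in on one allele and the other on both alleles, whereas both testes labelled *Zfp541* KO carried it on both. Which control library was which is not given, and the effects of knock-in dose and *Zfp541* genotype cannot be fully told apart. The labels name a mixed C57BL/6 and CBA strain, and the study's methods describe a CRISPR deletion spanning most exons of *Zfp541*, which encodes a zinc finger protein of meiotic prophase. The comparison asks how RNA levels in these cells differ between the genotypes.

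Testis actin-like proteins resemble actin in their fold but are made in male germ cells, mostly after meiosis. Several of them belong to the perinuclear theca, the cytoskeletal shell around the sperm nucleus that holds the acrosome in place. ACTL7A and ACTL9 work together in attaching the acrosome to the nucleus, and loss of ACTL7A, ACTL7B or ACTL9 impairs male fertility. Most genes of the family have no intron in their coding part, which marks them as copies of older genes made through an RNA intermediate.

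Values are TPM, a relative abundance of transcripts that is corrected for their length and scaled to one total in every library, so that levels of different genes within a library can be set side by side. TPM keeps no record of how many reads were counted, and the depth behind each value is unknown. *Zfp541* itself had 112 TPM in control 1, 72.2 TPM in control 2, and 136 and 151 TPM in KO-labelled libraries 1 and 2. Its RNA was therefore not lower in the KO-labelled libraries, and every direction given here rests on the labels alone. Deleted and remaining exons share a single value per gene. *Rec8*, the gene that carries the GFP, was at 7.05 and 27.9 TPM in the controls against 27.7 and 19.4 TPM in the KO-labelled libraries. The 2 controls were farther from each other, at a Euclidean distance of 153 on the log2(TPM + 1) scale, than either was from a KO-labelled library (111 to 133), and the 2 KO-labelled libraries were 49.2 apart. Macrophage and Leydig cell markers summed to 17.8 and 18.0 TPM in control 2, against 928 to 1380 and 331 to 2910 TPM in the other libraries.

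No sequence of 75 bases, the read length, in the annotated transcripts of the 8 genes was shared with a transcript of any other gene, out of 1265 windows in *Actrt1* to 3919 in *Actl11*. The genes are spread over the genome, with positions here from GENCODE vM21 on GRCm38, the assembly also called mm10. *Actl7b* (ENSMUSG00000070980.4) lies at chr4:56740005-56741443 on the minus strand and *Actl7a* (ENSMUSG00000070979.5) at chr4:56743413-56744925 on the plus strand. Both have 1 exon, and their starts face away from each other across 1969 bases. *Actl9* (ENSMUSG00000092519.2) is a gene of 1 exon at chr17:33432896-33434268 on the plus strand. *Actl10* lies at chr2:154551776-154553276, *Actl11* at chr9:107928469-107932461 and *Actrt1* at chrX:46329007-46330345, each with 1 exon on the plus strand. *Actrt2* is at chr4:154666433-154667867 with 1 exon and *Actrt3* at chr3:30597073-30599939 with 2 exons, both on the minus strand. The annotation tags *Actl7a*, *Actl7b*, *Actl9* and *Actl10* as retrogenes. The gene model Gm26657, on the opposite strand, covers most of *Actl7b* and was not analysed here, and *Necab3*, on the opposite strand, spans *Actl10*. Whether reads were assigned by strand is not given in the sources used here, so for *Actl7b* and *Actl10* RNA of the opposite strand cannot be told apart.

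Promoter windows of 300 bases, 250 before and 50 after the RefSeq start, were found for all 8 genes in RefSeq on GRCm38.p6. Those of the only 2 members with more than trace RNA, *Actl7b* and *Actl9*, are shown together with that of *Actl7a*, the neighbor of *Actl7b*, written 5′ to 3′ on the strand of the gene. Capitals mark TGATGTCA or its reverse complement TGACATCA, a sequence close to the cyclic AMP response element, and GTTGCC, a core of the X box bound by RFX factors.
Actl7b: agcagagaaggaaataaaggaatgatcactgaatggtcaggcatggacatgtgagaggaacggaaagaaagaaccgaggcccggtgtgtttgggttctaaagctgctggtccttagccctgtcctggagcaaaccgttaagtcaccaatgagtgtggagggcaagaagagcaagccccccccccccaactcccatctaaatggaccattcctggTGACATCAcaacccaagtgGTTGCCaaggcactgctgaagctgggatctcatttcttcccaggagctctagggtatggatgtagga
Actl9: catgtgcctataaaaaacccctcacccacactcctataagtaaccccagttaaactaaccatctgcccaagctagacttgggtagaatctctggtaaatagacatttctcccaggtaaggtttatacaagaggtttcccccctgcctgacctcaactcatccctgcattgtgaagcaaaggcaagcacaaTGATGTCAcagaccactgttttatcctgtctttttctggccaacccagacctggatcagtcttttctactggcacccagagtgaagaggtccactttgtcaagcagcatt
Actl7a: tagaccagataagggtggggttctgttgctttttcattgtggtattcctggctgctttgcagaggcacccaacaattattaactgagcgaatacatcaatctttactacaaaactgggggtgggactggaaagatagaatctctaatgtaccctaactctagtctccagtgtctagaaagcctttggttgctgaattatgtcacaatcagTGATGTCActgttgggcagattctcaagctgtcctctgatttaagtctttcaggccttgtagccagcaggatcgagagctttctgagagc
The windows are chr4:56741376-56741675 on the minus strand for *Actl7b*, chr17:33432649-33432948 on the plus strand for *Actl9* and chr4:56743172-56743471 on the plus strand for *Actl7a*. The first base of the marked element is at position -36 from the start in *Actl7b*, -60 in *Actl9* and -40 in *Actl7a*. None of the other 5 members held it, whereas 3.62% of all 32851 promoter windows did on either strand. The letters were chosen after these windows had been read, so the count of 3 members is a description. Genes tested whose window held TGATGTCA on either strand had a median log2 difference of 0.27 (258 genes), near the 0.28 of genes without it (10666 genes), and *Actl7a*, which holds it, was at trace level in every library. The palindrome TGACGTCA, the response element itself, was in 1.79% of windows and in no member. GTTGCC or its reverse complement GGCAAC was in 12.5% of windows and in *Actl7b* at -17, in *Actrt1* at -81 and in *Actrt2* at -41. TATAAA or TTTATA was in 13.6% of windows and, among the members, in *Actl9* alone, and GGGCGG or CCGCCC was in 35.7% and in no member.

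*Actl7b* was the most abundant member in both controls and was far lower in both KO-labelled libraries. It was at 74.3 TPM in control 1, 47.8 TPM in control 2, 2.77 TPM in KO-labelled library 1 and 4.65 TPM in KO-labelled library 2. The groups did not overlap. The lower control was 10.3 times the higher KO-labelled library, whereas the controls differed by 1.56 times between themselves. The means were 61.1 ± 18.8 TPM (SD, n = 2) in the controls against 3.71 ± 1.33 TPM (SD, n = 2) in the KO-labelled libraries, a ratio of 16.5. On the log2(TPM + 1) scale, which understates changes of low genes, the difference was -3.72 with a standard error of 0.40 from limma. This placed *Actl7b* 25th from the lowest of 14512 genes tested, at the lowest 0.172%, and the gene was selected for this value. Each single KO-labelled library lay below each single control, by -4.32 to -3.11 on the log2 scale.

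*Actl9* was the other member with appreciable RNA, and it was lower in the same libraries. It was at 32.3 and 13.4 TPM in controls 1 and 2, against 3.22 and 2.21 TPM in KO-labelled libraries 1 and 2. The groups did not overlap here either, although the controls were 2.41 times apart and control 2 was 4.17 times the higher KO-labelled library. The means were 22.9 ± 13.4 TPM (SD, n = 2) and 2.72 ± 0.714 TPM (SD, n = 2), a ratio of 8.43, and the log2 difference was -2.58 with a standard error of 0.55. *Actl9* was 146th from the lowest of the genes tested. Its library pairs differed by -3.38 to -1.77. Set against control 2 alone, its log2 difference was -1.97, and that of *Actl7b* was -3.40.

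The other 6 members were at trace level or listed at 0 in every library. *Actl7a*, the partner of ACTL9 in acrosome attachment, was at 0.34 TPM in control 1 and 0.13 TPM in KO-labelled library 2 and was listed at 0 in the remaining libraries. *Actl10* was listed at 0 in control 1 and was at 0.43 TPM in control 2, 0.31 TPM in KO-labelled library 1 and 0.63 TPM in KO-labelled library 2. Neither gene separated the groups. *Actl11*, *Actrt1*, *Actrt2* and *Actrt3* were listed at 0 in all 4 libraries. ACTRT1 and ACTRT2 are perinuclear theca proteins and ACTRT3 is a binding partner of the testis profilin PFN3 in haploid germ cells. With no counts deposited, a value of 0 sets no limit on the level of these genes.

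**Figure D1:**
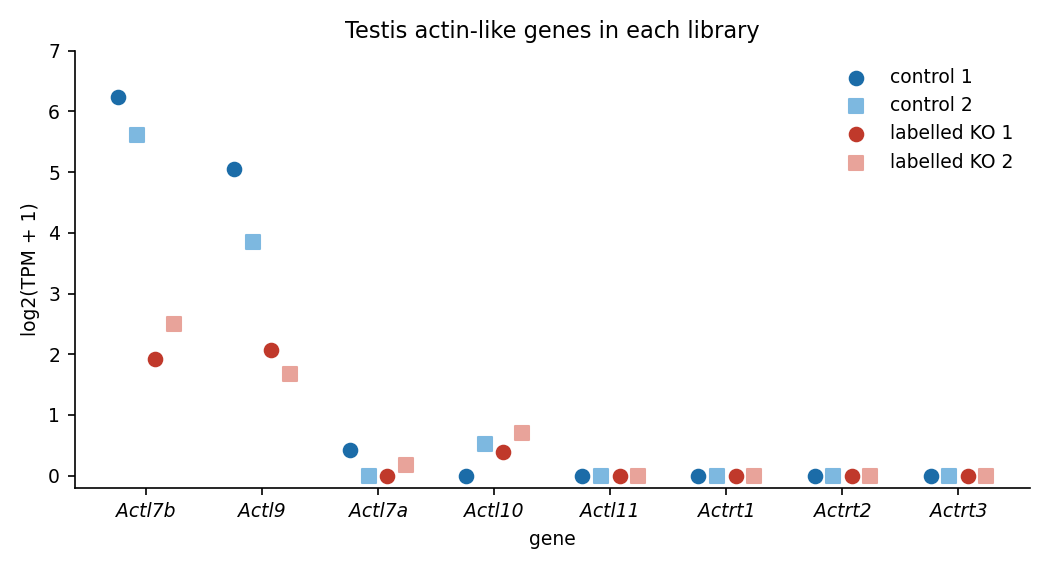
Level of each testis actin-like gene, as log2(TPM + 1) on the vertical axis, with 1 point per library (circles, replicate 1; squares, replicate 2; blue, controls; red, KO-labelled libraries). *Actl7b* and *Actl9* are high in both controls and low in both KO-labelled libraries, and the other 6 genes are at or near 0 in every library.

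Only 2 of the 8 members reached the mean of 1 TPM needed to enter the comparison. Both were above 1 TPM in every library, with means in the KO-labelled libraries of 3.71 TPM for *Actl7b* and 2.72 TPM for *Actl9*. Across the 14512 genes tested, 5.22% were at least 2-fold lower in the KO-labelled libraries and 12.1% had both of these libraries below both controls, as *Actl7b* and *Actl9* had. In the opposite direction, 38.6% had both libraries above both controls. These shares were 22.8% below and 22.6% above with median-ratio scaling. The number below, 1757, was 3630 without control 1 and 5228 without control 2. The number above, 5599, was 9556 without control 1. With a library left out the rule is easier to meet, so these counts cannot fall. The percentage of genes past an FDR of 0.05 by limma was 0, although 6985 genes passed without control 1 and 4123 without control 2, where the lone control is assumed to vary as the KO-labelled libraries do. The smallest adjusted p from limma was 0.310, and 2091 genes had an unadjusted p under 0.05, of which 542 were lower. With 2 libraries against 2, an exact two-sided permutation test of a single gene cannot give a p below 0.333. The median gene was higher by 0.28 on the log2 scale in the KO-labelled libraries, a shift that became -0.015 with median-ratio scaling. Relative to the median gene, *Actl7b* differed by -4.00 and *Actl9* by -2.86, and after median-ratio scaling these values were -3.99 and -2.84.

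*Actl7b* did not keep a fixed proportion to *Actl9*. The ratio of *Actl7b* to *Actl9* TPM was 2.30 and 3.56 in controls 1 and 2, against 0.860 and 2.10 in KO-labelled libraries 1 and 2. In KO-labelled library 1 *Actl9* was thus the higher of the pair, and in each of the others *Actl7b* was. Summed over all 8 members, the family was at 107 and 61.6 TPM in the controls against 6.30 and 7.62 TPM in the KO-labelled libraries. *Actl7b* made up 69.5% and 77.5% of this sum in the controls and 44.0% and 61.0% in the KO-labelled libraries.

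The levels of *Actl7b* and *Actl9* were then set beside marker genes of the cell types a sort from this testis could hold. Markers of pachytene and diplotene spermatocytes summed to 7164 and 3502 TPM in the controls against 2204 and 3185 TPM in the KO-labelled libraries. Of the 12, 6 were lower in both KO-labelled libraries than in both controls, against 12.1% of all genes tested (22.8% with median-ratio scaling). Markers of leptotene and zygotene spermatocytes, the earlier stages, summed to 1560 and 1731 TPM in control libraries and 2946 and 3063 TPM in KO-labelled ones, with 9 of 11 above both controls, against 38.6% of all genes tested (22.6% with median-ratio scaling). Both marker counts were made on TPM without that scaling, so only 12.1% and 38.6% are shares counted in the same way. In these bulk samples, fewer cells of a stage and less RNA per cell cannot be told apart. The part that stage composition has in the lower *Actl7b* and *Actl9* was not tested. Per 1000 TPM of the pachytene and diplotene markers, a sum in which *Ldhc* and *Ybx2* are the most abundant, *Actl7b* was at 10.4 and 13.6 TPM in the controls against 1.26 and 1.46 TPM in the KO-labelled libraries, so that the lower control was 7.11 times the higher KO-labelled library. For *Actl9* the same values were 4.51, 3.83, 1.46 and 0.694 TPM, a factor of 2.62. These factors depend on the marker. Set against each of the 12 markers alone, a comparison added after the values were seen, *Actl7b* was higher in both controls than in both KO-labelled libraries for 8 markers and not for *Pgk2*, *Ccna1*, *Spata16* and *Pou5f2*, with factors from 0.032 (*Pou5f2*) to 22.3 (*Mybl1*). Relative to *Spata16*, *Actl7b* was at 0.359 and 0.626 in the controls and at 0.627 and 0.343 in the KO-labelled libraries. For *Actl9* it was the same 4 markers, with factors from 0.029 to 8.88.

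The pachytene and diplotene markers were not alike, and the genes named next were picked after their values were seen. *Pgk2*, a testis-specific glycolytic kinase, had 79.0 and 18.4 TPM in controls 1 and 2, with 1.59 and 2.71 TPM in KO-labelled libraries 1 and 2. *Spata16*, needed for acrosome formation, was at 207, 76.3, 4.42 and 13.6 TPM. Their log2 differences were -3.67 and -3.83, with standard errors of 0.79 and 0.72 against 0.40 for *Actl7b*, and the lower control was 6.77 and 5.62 times the higher KO-labelled library against 10.3 times for *Actl7b*. *Pou5f2* went further than *Actl7b* on this measure, at 70.5, 6.31, 0.33 and 0.14 TPM, with the lower control 19.1 times the higher KO-labelled library. Its log2 difference was -4.21, with a standard error of 1.18. *Piwil1*, a PIWI protein of pachytene spermatocytes, was at 706, 244, 238 and 364 TPM, and *Ybx2*, a germ cell RNA-binding protein, at 2137, 1185, 1004 and 1362 TPM. These 2 genes overlapped between the groups. *Mybl1*, a transcription factor of pachytene spermatocytes, was the 1 marker of the list above both controls, with 70.3, 38.3, 81.5 and 98.1 TPM and a log2 difference of 0.77.

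Spermatid markers were low in every library. The 12 round spermatid markers summed to 11.6 to 12.0 TPM in the controls against 14.8 to 17.8 TPM in the KO-labelled libraries, with *Spaca4* listed at 0 throughout. The 10 elongating spermatid markers summed to 9.97 to 22.0 TPM and 16.9 to 18.9 TPM, with *Prm3* listed at 0 throughout. Only 3 genes of each list reached the level for testing. Much of the round spermatid sum came from *Tssk6*, at 2.56 and 5.49 TPM in the controls against 8.83 and 7.14 TPM, and *Tssk1*, at 6.81 and 2.6 against 1.99 and 3.61 TPM. *Oaz3* was the highest elongating spermatid marker in every library, at 10.2 and 9.05 against 13.3 and 14.9 TPM. *Tnp2* was at 7.59 TPM in control 1 and 0.75 TPM or below elsewhere. Neither sum, each resting on few genes, was lower in the KO-labelled libraries in the way that *Actl7b* was. Among other cell types, macrophage markers were at 1380 TPM in control 1 and 17.8 TPM in control 2, and Leydig cell markers at 2910 and 18.0 TPM, while *Actl7b* was 1.56 times apart in these libraries. Spermatogonial markers summed to 478 to 1067 TPM, Sertoli cell markers to 148 to 254 TPM, peritubular myoid cell markers to 12.3 to 24.7 TPM and red blood cell markers to 20.3 to 280 TPM, and for each of these the ranges of the groups overlapped.

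**Figure D2:**
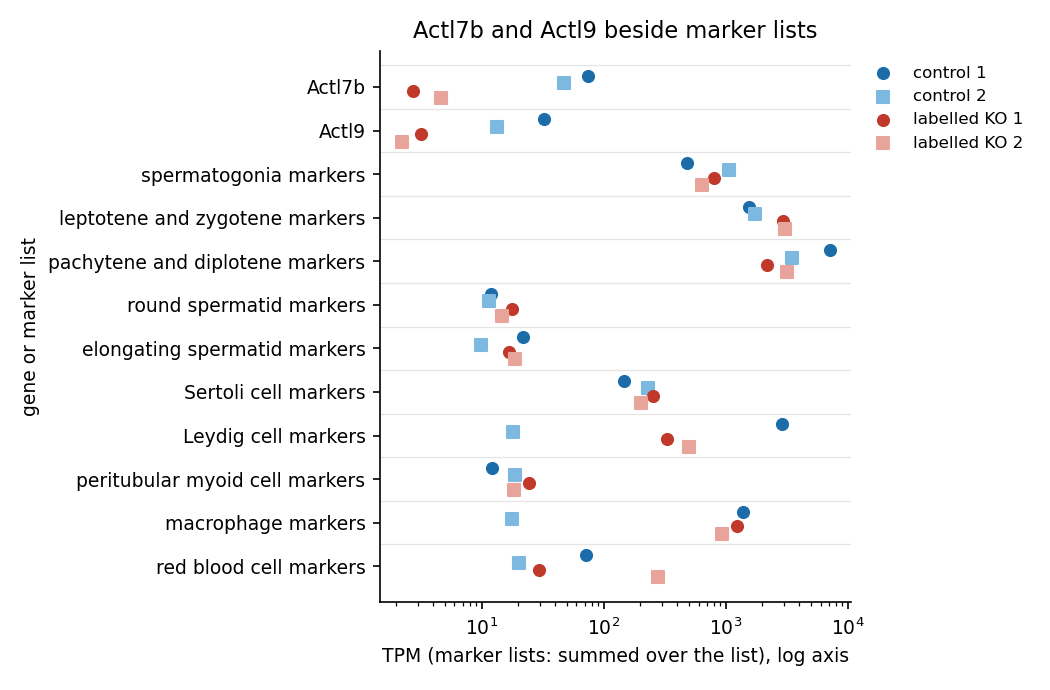
TPM of *Actl7b* and *Actl9* and summed TPM of 10 marker lists on a log axis, with 1 point per library (circles, replicate 1; squares, replicate 2; blue, controls; red, KO-labelled libraries). The gap between blue and red points is wide for *Actl7b* and *Actl9*, narrower for the pachytene and diplotene markers and reversed for the leptotene and zygotene markers, and control 2 stands apart in the Leydig cell and macrophage markers.

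The tested genes of 4 other actin lists differed less in size than *Actl7b* and *Actl9*, and none passed the FDR. Conventional actins build the filaments themselves, and 3 of the 7 were tested. *Actb*, cytoplasmic beta-actin, was at 852 and 626 TPM in the controls against 890 and 808 TPM in the KO-labelled libraries, and *Actg1*, cytoplasmic gamma-actin, at 1751, 1727, 1649 and 1570 TPM. *Acta2*, the smooth muscle actin, was at 2.99, 9.33, 10.6 and 6.01 TPM. Their log2 differences were -0.11 for *Actg1*, the lowest, to 0.49 for *Acta2*, the highest, with a median of 0.22 against 0.28 for all genes tested, which turned to -0.12 with median-ratio scaling, -0.10 without control 1 and -0.0064 without control 2. None passed the FDR or an unadjusted p of 0.05, with adjusted p from limma of 0.729 to 0.872. The KO-labelled libraries were both below both controls for *Actg1* alone.

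General actin-related proteins serve the ARP2/3 complex, dynactin and chromatin remodelers, and 10 of the 11 were tested. Their median log2 difference was 0.19, and -0.13 with median-ratio scaling. *Actr2*, a subunit of the ARP2/3 complex that branches filaments, had the highest value at 0.80, with 56.2 and 21.5 TPM in the controls against 63.7 and 59.3 TPM in the KO-labelled libraries. *Actr1a*, the actin-related filament of dynactin, had the lowest at -0.39, with 243 and 199 TPM against 171 and 164 TPM. No gene of the list passed the FDR (adjusted p from limma 0.322 to 0.887), and 1 was higher at an unadjusted p under 0.05. Both KO-labelled libraries lay above both controls for 6 of the 10 and below for 1, beside 38.6% and 12.1% of all genes tested.

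General actin assembly factors such as profilins, cofilins and capping proteins were tested for 21 of 22 genes. Their median log2 difference was 0.096, and -0.24 with median-ratio scaling. Gelsolin (*Gsn*), which severs filaments, was highest at 0.78, with 75.9 TPM in control 1, 6.19 TPM in control 2 and 37.5 and 41.1 TPM in the KO-labelled libraries, so that the controls lay on either side of them. *Cap2*, a cyclase-associated protein that recycles actin monomers, was lowest at -1.33, with 3.36 and 1.48 TPM against 0.37 and 0.25 TPM. None passed the FDR (adjusted p from limma 0.333 to 0.989), *Cap2* was the 1 gene with an unadjusted p under 0.05, and 7 of the 21 were above both controls and 4 below, beside 38.6% and 12.1% of all genes tested.

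Genes of the sperm head cytoskeleton and testis-specific actin partners are closest to the family in place and time of use. Of the 18 listed, 17 were found and 8 reached the level for testing, with a median log2 difference of -0.52 against 0.28 for all genes tested. Over all 17 genes without the filter the median was 0.18, so the sign rests on the genes that passed the filter, and without control 1 the filtered median was -0.069. *Zpbp2*, a zona pellucida-binding protein of the acrosome, was lowest at -1.91, with 199 and 52.4 TPM in the controls against 22.1 and 31.7 TPM in the KO-labelled libraries. *Spaca1*, an acrosomal membrane protein, was highest at 1.32, with 7.34 and 13.9 TPM against 27.0 and 26.6 TPM. The groups did not overlap for either gene, and they went in opposite directions. Neither passed the FDR, with adjusted p from limma of 0.343 and 0.319, and they were the only genes of the list with an unadjusted p under 0.05. *Fabp9*, the most abundant of the list, was at 2356 and 1360 TPM in the controls against 854 and 1180 TPM in the KO-labelled libraries. Testis profilin *Pfn4* was at 109, 71.9, 59.3 and 69.8 TPM. Of the 8 genes tested, *Fabp9*, *Pfn4* and *Zpbp2* were the 3 below both controls and *Spaca1* the 1 above, and among the untested genes *Sun5* was listed at 0 in both controls and was at 0.20 and 0.33 TPM in the KO-labelled libraries. The capping subunit *Capza3* and the sperm phospholipase *Plcz1* were at 2.23 and 2.74 TPM in control 1 and listed at 0 in the other 3 libraries. The perinuclear theca genes *Ccin*, *Cylc1* and *Cylc2* were at 0.73 TPM or below in every library.

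**Figure D3:**
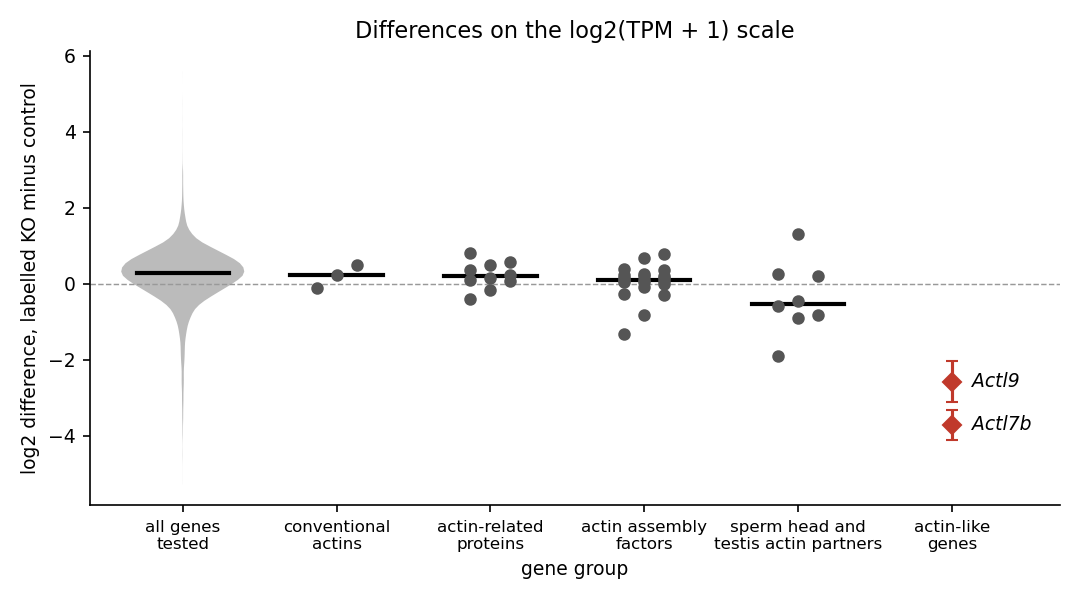
Difference between KO-labelled libraries and controls on the log2(TPM + 1) scale, for all 14512 genes tested (gray shape, width by density), for the tested genes of 4 actin lists (points) and for *Actl7b* and *Actl9* (diamonds, bars are the standard error from limma). Black lines are medians, which lie between -0.52 and 0.28, and *Actl7b* (-3.72) and *Actl9* (-2.58) lie below every point of the lists.

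The genes whose profile over the 4 libraries was nearest to that of *Actl7b* were found by the Euclidean distance between log2(TPM + 1) values centered on each gene's mean. As the genes were ranked on the same values, this is a description over 4 libraries that share their split into groups. The nearest was 1700003I22Rik at a distance of 0.341, with 21.5 and 9.49 TPM in the controls, a listed 0 in KO-labelled library 1 and 0.51 TPM in KO-labelled library 2. *Mospd4* followed at 0.382, with 94.6, 44.1, 2.44 and 4.86 TPM. *Cetn1*, the centriolar protein centrin of male germ cells, was at 0.494, with 607, 257, 28.7 and 41.4 TPM. *Ttc29*, a protein of the sperm flagellum, was at 0.579, with 82.7, 32.1, 1.57 and 3.39 TPM. Gm13889 was at 0.607, with 19.0, 7.75, 0.18 and 0.59 TPM. All 5 had a higher value in control 1 than in control 2, and a lower one in KO-labelled library 1 than in KO-labelled library 2, as *Actl7b* had. *Actl9* was the 94th nearest, at a distance of 1.40, and its higher value within the KO-labelled libraries was in library 1.

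**Figure D4:**
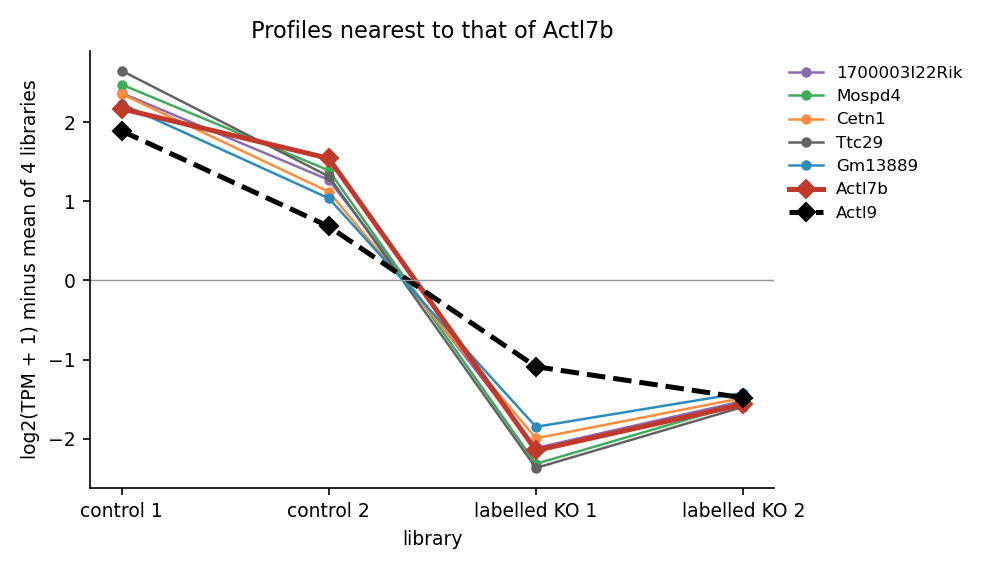
Log2(TPM + 1) in each library minus the gene's mean over the 4 libraries, for *Actl7b* (thick red), *Actl9* (dashed black) and the 5 genes nearest to *Actl7b* (thin lines). The 5 genes run close to *Actl7b*, at distances of 0.341 to 0.607, while *Actl9* is 1.40 away.

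The protein-coding neighbors of *Actl7b* and *Actl9* were read from the annotation. *Actl7a*, the neighbor of *Actl7b* on one side, was at trace level, as given above, and *Klf4* on the other side, 1207538 bases away, was at 30.8 and 4.75 TPM in the controls against 18.6 and 19.8 TPM in the KO-labelled libraries. *Fam206a*, 57419 bases beyond *Actl7a*, was at 40.6, 24.3, 40.3 and 42.3 TPM. The neighbors of *Actl9* were *Zfp101*, 38254 bases away, at 4.44, 3.25, 7.42 and 7.60 TPM, and *Adamts10*, 89935 bases away, at 13.6, 2.02, 10.0 and 9.72 TPM. Of *Klf4*, *Fam206a*, *Zfp101* and *Adamts10*, none was lower in both KO-labelled libraries than in both controls.

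Genes beside the other members were expressed at a range of levels. 1700003F12Rik and *E2f1*, on either side of *Actl10*, were at 1.22 to 5.16 TPM and 13.7 to 35.4 TPM over the 4 libraries. *Mst1r* and *Camkv*, around *Actl11*, were at 0.55 to 4.42 TPM and 2.52 to 8.69 TPM. *Mynn*, 2125 bases from *Actrt3*, was at 15.5 and 16.1 TPM in the controls against 26.0 and 26.7 TPM in the KO-labelled libraries, while *Actrt3* itself was listed at 0. *Mecom*, on its other side, was at 0.15 TPM or below. *Prdm16* and *Ttc34*, around *Actrt2*, were at 1.02 to 3.13 TPM and 3.01 to 13.1 TPM. Of the distant neighbors of *Actrt1*, *Prr32* was listed at 0 throughout and *Smarca1* was at 7.83 to 33.8 TPM. *Necab3*, which spans *Actl10* on the opposite strand, was at 0.83 to 3.19 TPM.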

How the data were processed

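GFP-positive testis cells of 4 mouse samples were measured by single-end RNA-seq of 75 nt (TruSeq mRNA). Per the submitters' processing notes, the authors used Trim Galore 0.5.0 with cutadapt 1.16, STAR 2.6.0a, mm10 and RSEM 1.3.1, and they deposited TPM per gene and sample. Each library adds up to one fixed total, so depth is unknown and counting error cannot be given. Of 24411 rows, 27 show a date where the symbol should be and were left unnamed, and 25 of these are among the 14512 tested.

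Genes averaging 1 TPM or more across the 4 libraries were compared on log2(TPM + 1) in limma 3.58.1 (R 4.3.3), using its trend option and adjusting p by Benjamini-Hochberg, 2 controls against 2 KO-labelled libraries. The procedure was tested on simulated data. As the sources do not say that every testis came from a different animal, p-values measure only the spread between these samples. The members, actin lists, marker lists and tests were chosen with earlier results of these data known. Named genes were all members, the highest and lowest gene of each actin list, the 5 profiles nearest to *Actl7b*, and the nearest protein-coding neighbors. Genes chosen after their values were seen are the pachytene examples, *Oaz3*, *Tssk6*, *Tssk1*, *Tnp2*, *Sun5*, *Fabp9*, *Pfn4*, *Capza3*, *Plcz1*, *Ccin*, *Cylc1*, *Cylc2* and *Necab3*. Alternatives varied pseudocount, filter, scaling, trend and block, and left out each library. Whether numbers pair the samples is not given by the labels.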

Additional observations from a re-analysis of the deposited data

How the results depend on the processing

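*Actl7b* and *Actl9* were lower in the KO-labelled libraries under every alternative run. With a pseudocount of 5 the log2 differences were -2.90 and -1.77, and leaving out each library in turn gave -4.03 to -3.40 and -3.18 to -1.97. Genes at least 2-fold lower numbered 464 at the pseudocount of 5, 1148 after median-ratio scaling and 614 to 1653 on leaving out a library. Genes at least 2-fold higher numbered 1303, and 2063 and 513 with pseudocounts of 0.1 and 5, 593 with median-ratio scaling, 634 with quantile normalization and 815 to 3506 on leaving out a library. Genes with both KO-labelled libraries below both controls numbered 3309 and 2815 with median-ratio scaling and quantile normalization and 2271 to 5228 on leaving out a library. Those above numbered 3276 with median-ratio scaling and 6222 to 9556 on leaving out a library. Leaving out a library makes the rule of both libraries below or above easier to meet, so those counts cannot fall. The cause of the other moves was not tested.

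With the replicate block, 0 genes passed the FDR (1107 at an unadjusted p under 0.05). The deviations of samples with the same number had a correlation of -0.16, and a crossed replicate block, chosen after seeing the data, gave 87 genes (7 higher, 80 lower). Leaving out a library gave 0 to 6985 genes. The count was 6985 without control 1 and 4123 without control 2, where the spread rests on the 2 KO-labelled libraries and the lone control is assumed to vary as they do, and 0 without either KO-labelled library (191 and 274 at an unadjusted p under 0.05). The other alternatives gave 0.

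With median-ratio scaling, median log2 differences turned to -0.12 for conventional actins, -0.13 for general actin-related proteins, -0.24 for assembly factors and -0.015 for all genes tested, and the share of genes higher went from 69.0% to 49.0% (55.8% with quantile normalization). The conventional actin median was -0.10 to 0.28 on leaving out a library (-0.10 without control 1, -0.0064 without control 2). The sperm head list turned to 0.18 without the filter and was -0.069 without control 1.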
